A study of Arabidopsis thaliana with 6 samples.

Results

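SPL genes encode SQUAMOSA PROMOTER BINDING PROTEIN-LIKE transcription factors, which share a zinc-binding SBP domain and recognise DNA motifs with a GTAC core. The 8 members described here, SPL2, SPL3, SPL4, SPL5, SPL9, SPL10, SPL11 and SPL15, are targets of the microRNA miR156. In young plants miR156 is abundant and holds their transcripts down, and as it declines with age the SPL proteins promote the change from juvenile to adult leaves and the start of flowering. SOC1, a MADS-domain protein, integrates the flowering signals at the apex. SPL9 is known to act on SOC1, SOC1 is known to act on SPL3, SPL4 and SPL5, and SPL15 is known to cooperate with SOC1 at flowering genes.

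The members were chosen by locus identifier, and regions were taken from the deposited table where the centre lay within an SPL gene, up to 3000 bp upstream of it or up to 1000 bp downstream of it. This gave 14 of the 24032 listed regions, and each of the 8 genes had at least 1, as did 22909 genes in all. Of the 14 regions, 8 lay upstream of an SPL gene, 3 within one and 3 downstream.

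The values came from chromatin immunoprecipitation followed by sequencing (ChIP-seq) of Arabidopsis thaliana shoot apices. Every plant carried the soc1-2 mutation and a genomic SOC1 transgene under the SOC1 promoter, either fused to GFP (SOC1p:gSOC1-GFP;soc1-2, line 7) or untagged (SOC1p:gSOC1;soc1-2, line 9). Each genotype was thus a single transgenic line. Plants had 15 short days and 3 long days, apices were taken at zeitgeber time 4, and an anti-GFP antibody was used on both genotypes, so the untagged libraries measured background. There were 3 libraries per genotype, numbered 1 to 3. Nothing in the labels says that they came from separate plantings, so p-values measure only the spread between these libraries, which may be technical.

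The gSOC1-GFP libraries held 183668 to 663108 reads in the listed regions and the untagged libraries 41073 to 396326. The median region held 1 read in untagged replicate 2 and 2 reads in untagged replicate 3, and 32.2% and 19.3% of the regions had none there. Untagged replicate 1 stood apart, with 35.4% of its listed reads in its 5% most covered regions, against 22.5% and 18.2% in the other untagged libraries. Replicate 1 was also the highest of the tagged libraries, at 28.5% against 24.3% and 19.6%. Densities below are counts-per-million (CPM) of the listed reads, scaled with TMM (the trimmed mean of M-values). A count of 0 allows a density of up to 12.4, 53.8 and 37.1 CPM in untagged replicates 1, 2 and 3 (3 reads, counting error only). The region over the SOC1 promoter, 89 bp upstream of the gene, had tagged counts of 2018, 808 and 1038 over untagged counts of 74, 5 and 18. It gives the scale of a strong site, but every plant also carried the SOC1 promoter in the transgene. Reads from transgene copies, which the SPL regions lack, can add to these counts, and how much was not tested.

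No SPL region was called in gSOC1-GFP over untagged chromatin. In the authors' deposited table, 0 of the 14 SPL regions had a false discovery rate (FDR) below 0.05 in all 3 replicates, against 1.12% of all regions. At least 1 replicate passed at 2 of the 14, a share near the 12.4% of all regions. These were the regions inside SPL11 and inside SPL10. The quasi-likelihood test of edgeR, adjusted by Benjamini-Hochberg over all 24032 regions, called 0 SPL regions and 0 regions of the table (0.0%), with 0 SPL regions and 762 regions in all (3.17%) at an unadjusted p under 0.05. Without a block it did not call the SOC1 promoter region either, so its lack of SPL calls does not separate them from a strong site. With the replicate number as a block it called 91 regions of the table (0.379%), the SOC1 promoter region among them, and 0 SPL regions. DESeq2 called 94 of the 5822 regions that it gave an adjusted p (1.61%). It gave one to 3 of the 14 SPL regions, those 110 bp upstream of SPL9, downstream of SPL9 and upstream of SPL3, and called 0 of these.

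Log2 enrichment is the log2 ratio of scaled tagged to untagged counts in a replicate pair, with a prior count of 1. The median over the 14 SPL regions was 0.47, and the median over all listed regions was 0.31. For the 270 regions called by the FDR it was 2.43. With a prior count of 10 the SPL regions and all regions had the same median, 0.06. The mean enrichment of an SPL region ran from -0.51 to 1.84, and at 11 of the 14 its SD over the 3 pairs exceeded the size of the mean. Enrichment was above 0 in all 3 pairs at 3 regions, against 16.4% of all regions, and the sign differed between pairs at the other 11. The tagged densities all exceeded the untagged ones at the same 3 regions, against 8.48% of all regions. They lay 28 bp upstream of SPL4, inside SPL10 and inside SPL11. With library totals in place of TMM, pair 3 of SPL10 turned to -0.08, and with DESeq2 size factors pair 3 of SPL10 turned to -0.01 and pair 1 of SPL11 to -0.07, so that the SPL4 region alone was above 0 in all pairs under each scaling. Reads summed over the 14 regions made up 0.0533% ± 0.00415 (SD, n = 3) of those listed in gSOC1-GFP and 0.0541% ± 0.0148 (SD, n = 3) in untagged chromatin.

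**Figure D1:**
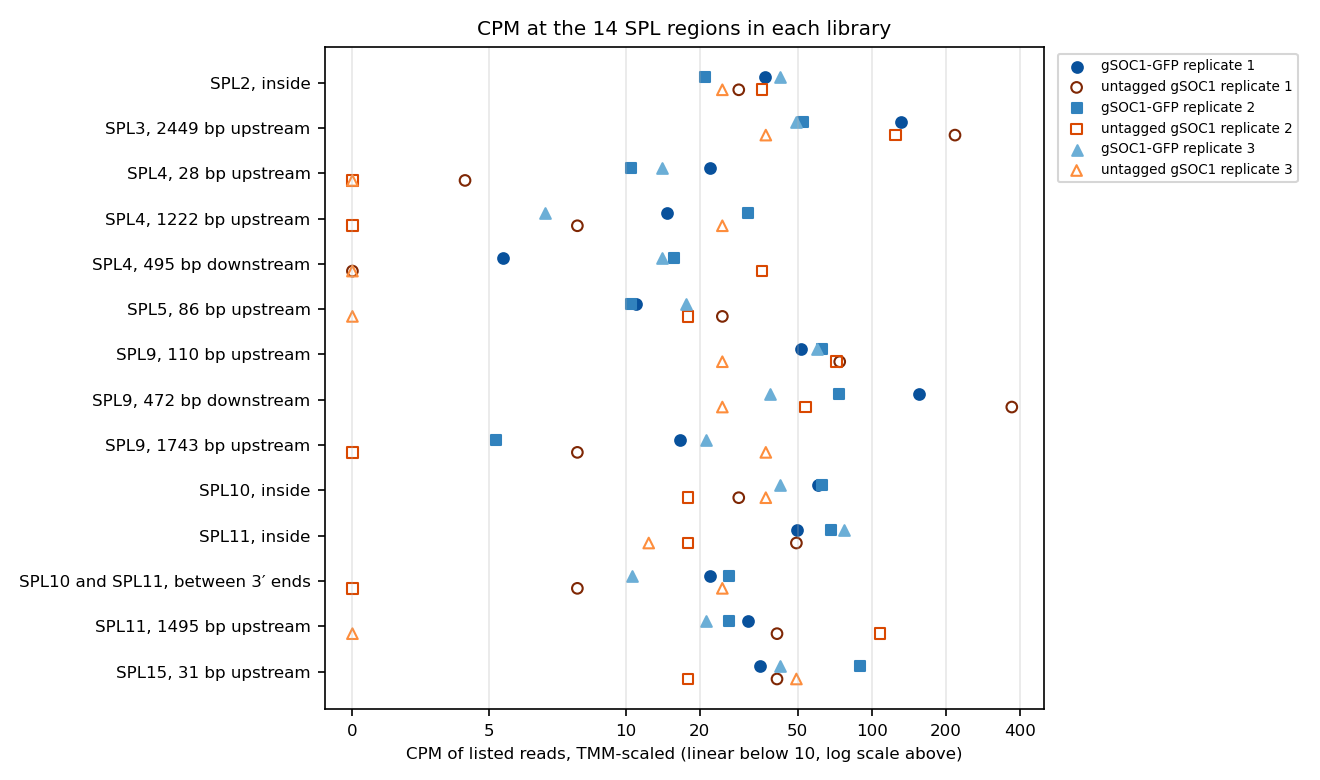
Read density (CPM of the listed reads, TMM-scaled; linear below 10 and logarithmic above) at each of the 14 SPL regions, with filled symbols for the 3 gSOC1-GFP libraries and open symbols for the 3 untagged libraries. With this scaling tagged and untagged symbols overlap at 11 regions, and stand apart at the region 28 bp upstream of SPL4 and those inside SPL10 and SPL11.

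SPL3, SPL4 and SPL5 encode small proteins that promote the floral transition and the identity of floral meristems. SPL3 (AT2G33810) had 1 region, on chromosome 2 from 14302361 to 14302743 (TAIR10), 2449 bp upstream of the gene. It lay much closer to another gene, 121 bp upstream of EMB3113. Tagged replicates 1, 2 and 3 held 71, 10 and 14 reads there, and the untagged replicates held 53, 7 and 3. The untagged densities of 218, 125 and 37.1 CPM spanned the tagged ones of 131, 52.5 and 49.3, so the groups overlapped. Mean enrichment was the lowest of the 14, at -0.51 ± 0.80 (SD, n = 3). In untagged replicate 1 this region had at least as many reads as 91.5% of all regions, and without that library the edgeR log2 fold change was 0.07 in place of -0.73 (adjusted p = 0.999 and 1.0).

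SPL4 (AT1G53160) had 3 regions on chromosome 1. The nearest, from 19806314 to 19806467, lay 28 bp upstream of the gene and had the highest mean enrichment of the SPL regions. Read counts were 12, 2 and 4 in the tagged and 1, 0 and 0 in the untagged libraries. The pairs gave 1.65, 1.78 and 2.10, a mean of 1.84 ± 0.23 (SD, n = 3; 3.59-fold), above that of 96.4% of all listed regions. With only 19 reads in all, the tagged densities of replicates 2 and 3, 10.5 and 14.1 CPM, were below what an untagged count of 0 allows (53.8 and 37.1). No difference was therefore detectable in those pairs at this depth. A prior count of 10 brought the mean to 0.40. The edgeR log2 fold change was 2.47 (unadjusted p = 0.0704, the lowest of the 14 regions; adjusted p = 1.0). Without untagged replicate 1, which held the only untagged read, the fitted value was 4.99 (adjusted p = 0.924), and with every remaining untagged count at 0 it depends on the prior count. Its FDR in the authors' deposited table was 0.0635, 0.625 and 0.414 in replicates 1, 2 and 3.

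The region 1222 bp upstream of SPL4, from 19805127 to 19805267, had 8, 6 and 2 reads in the tagged and 2, 0 and 2 in the untagged libraries. Its pairs gave 0.60, 3.06 and -1.36, so the sign turned with the replicate. Downstream of SPL4, at 495 bp and from 19808025 to 19808182, tagged counts of 3, 3 and 4 stood beside untagged counts of 0, 2 and 0, a mean of 0.76 ± 1.59 (SD, n = 3). This was the SPL region with the fewest reads, 12 in all. The tagged and untagged densities overlapped at both regions.

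SPL5 (AT3G15270) had 1 region, 86 bp upstream on chromosome 3 from 5141369 to 5141501. Its centre also lay within a transcript of the neighbouring gene AT3G15260, outside the exons listed by the authors. Read counts were 6, 2 and 5 in the tagged and 6, 1 and 0 in the untagged libraries. Tagged densities between 10.5 and 17.6 CPM lay among untagged densities of 24.7, 17.9 and 0. The 3 pairs gave -0.92, -0.59 and 2.35, and the mean of 0.28 ± 1.80 (SD, n = 3) rested on the pair whose untagged count was 0. In the authors' deposited table it had rank 19928, the last of the 14 SPL regions.

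**Figure D2:**
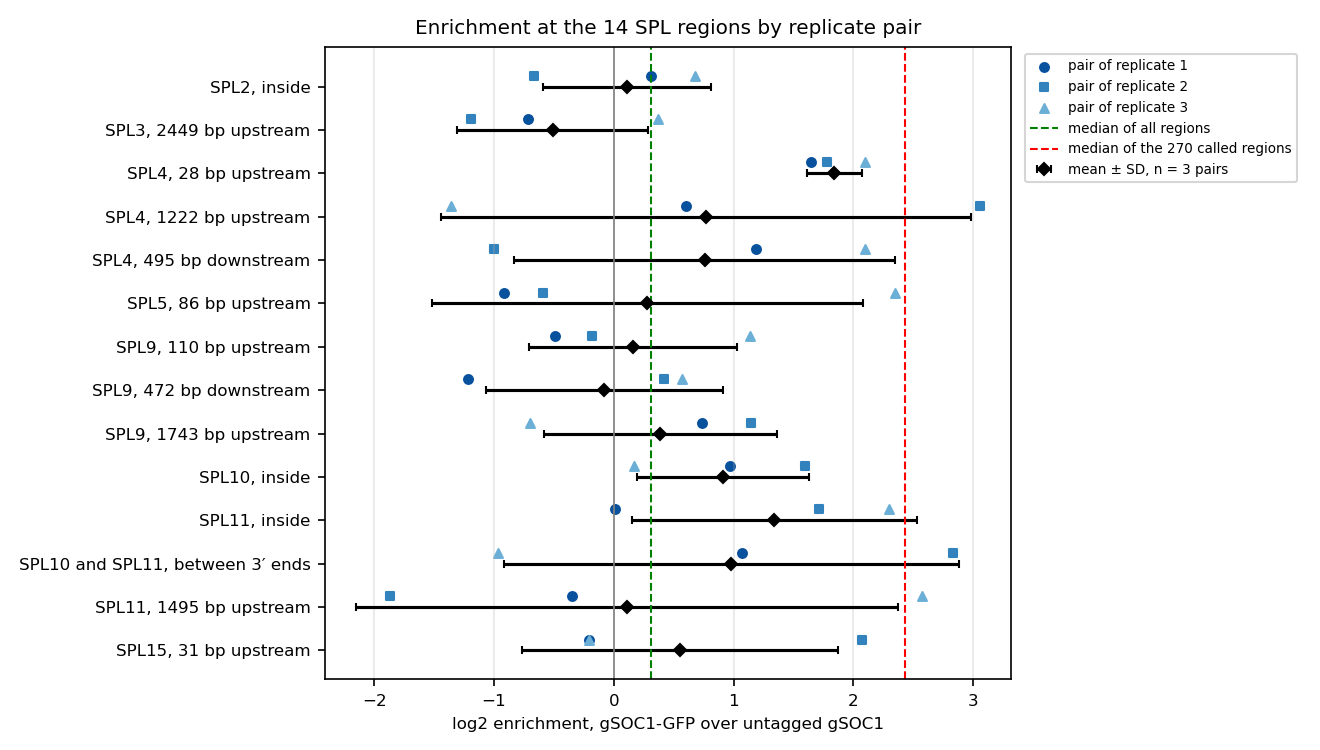
Log2 enrichment of gSOC1-GFP over untagged chromatin at the 14 SPL regions, with coloured symbols for the 3 replicate pairs and black diamonds for the mean ± SD (n = 3). The dashed lines mark the medians of all regions (0.31) and of the 270 called regions (2.43), and every SPL mean lies below the second line.

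SPL9 and SPL15 are close relatives that act in the shoot apex on leaf production, phase change and flowering, SPL15 above all under non-inductive days. SPL9 (AT2G42200) had 3 regions on chromosome 2. The one 110 bp upstream, from 17587176 to 17587417, had tagged counts of 28, 12 and 17 and untagged counts of 18, 4 and 2. As densities these were 51.5, 63.0 and 59.8 CPM against 74.1, 71.7 and 24.7, so the tagged libraries lay between the untagged ones. Mean enrichment was 0.16 ± 0.87 (SD, n = 3), below the median of all regions, although this was among the better covered SPL regions with 81 reads. The edgeR log2 fold change was -0.02, with a sign that changed in 11 of 18 alternative fits, and the difference was smaller than the spread between pairs.

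The region 1743 bp upstream of SPL9, from 17585597 to 17585730, held 9, 1 and 6 tagged and 2, 0 and 3 untagged reads, with a mean of 0.39 ± 0.97 (SD, n = 3). The region 472 bp downstream, from 17589935 to 17590271, was the most covered of the 14, with 205 reads. It also lay 88 bp upstream of the next gene, OEP16-3. Tagged libraries held 85, 14 and 11 reads and untagged libraries 90, 3 and 2. Untagged replicate 1 reached 371 CPM, the highest density at any SPL region, and had at least as many reads there as at 96.5% of all regions. The pairs gave -1.22, 0.42 and 0.57, and the edgeR log2 fold change moved from -0.80 to 1.30 without that library (adjusted p = 0.931). Without untagged replicate 1 the direction was thus reversed, and neither fit gave a call.

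SPL15 (AT3G57920) had 1 region, 31 bp upstream of the gene on chromosome 3 from 21445937 to 21446197. Read counts were 19, 17 and 12 in the tagged and 10, 1 and 4 in the untagged libraries. Pairs 1 and 3 both gave -0.21, and pair 2 gave 2.07, so the mean of 0.55 ± 1.32 (SD, n = 3) came from replicate 2, and without that replicate it was -0.21. The FDR of replicate 2 in the authors' deposited table was 0.0737, against 0.444 and 0.533 in replicates 1 and 3.

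SPL2, SPL10 and SPL11 form a clade that shapes leaves and lateral organs as the shoot matures. SPL10 (AT1G27370) and SPL11 (AT1G27360) are neighbours on chromosome 1, with their 3′ ends facing each other. The region inside SPL11, from 9501353 to 9501754, lay in transcript AT1G27360.2 outside its listed exons, and also 2128 bp upstream of AT1G27350. Read counts were 27, 13 and 22 in the tagged and 12, 1 and 1 in the untagged libraries. Tagged densities were 49.7, 68.2 and 77.4 CPM and untagged densities 49.4, 17.9 and 12.4. The groups did not overlap, but in replicate 1 the tagged and untagged densities were nearly equal. The pairs gave 0.01, 1.71 and 2.30, a mean of 1.34 ± 1.19 (SD, n = 3). Pair 1 depended on the scaling, at 0.39 with library totals and -0.07 with DESeq2 size factors. In the authors' deposited table this was the best-ranked SPL region, at 1033 of 24032, with an FDR of 0.265, 0.185 and 0.0410 in replicates 1, 2 and 3.

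For the region inside SPL11 the edgeR log2 fold change was 0.98 (unadjusted p = 0.154, adjusted p = 1.0). Without untagged replicate 1 it was 2.10 (unadjusted p = 0.0488, adjusted p = 0.907), the only SPL region at an unadjusted p under 0.05 in that fit, against 5.43% of all regions. In pair 3 its tagged share of the reads was 95.7% (95% exact binomial interval 78.1% to 99.9%). The lower limit lay just above the 77.8% given by the TMM-scaled library sizes, and other scalings were not tried for these shares. In pair 1 the tagged share was 69.2% (52.4% to 83.0%), against 69.1% for the libraries.

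Inside SPL10 the region ran from 9507388 to 9507720, in the 5′ UTR of transcript AT1G27370.1 and outside the listed exons of 2 others. Read counts were 33, 12 and 12 in the tagged and 7, 1 and 3 in the untagged libraries. The tagged densities of 60.7, 63.0 and 42.2 CPM were all above the untagged 28.8, 17.9 and 37.1. Enrichment was 0.97, 1.60 and 0.17 in the pairs, a mean of 0.91 ± 0.72 (SD, n = 3). In the authors' deposited table the FDR of replicate 1 was 0.0116 and those of replicates 2 and 3 were 0.221 and 0.434. The edgeR log2 fold change was 0.93 (unadjusted p = 0.176, adjusted p = 1.0), in the fit that called no region of the table. With the replicate block, which called 91 regions, it was 0.94 (unadjusted p = 0.191) and this region was not called.

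A further region, from 9504415 to 9504605, lay between the SPL11 and SPL10 genes, 640 bp downstream of SPL11 and 691 bp downstream of SPL10. It held 12, 5 and 3 tagged and 2, 0 and 2 untagged reads. Enrichment turned from 2.83 in pair 2 to -0.97 in pair 3. The region 1495 bp upstream of SPL11, from 9499477 to 9499687, lay 156 bp upstream of AT1G27350 and held 17, 5 and 6 tagged and 10, 6 and 0 untagged reads. Its pairs gave -0.35, -1.87 and 2.57, the largest SD of the 14 (2.26). SPL2 (AT5G43270) had 1 region, inside transcript AT5G43270.2 outside its listed exons, on chromosome 5 from 17363479 to 17363703. Tagged counts were 20, 4 and 12 beside untagged counts of 7, 2 and 2, with a mean enrichment of 0.11 ± 0.70 (SD, n = 3), and the groups overlapped.

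**Figure D3:**
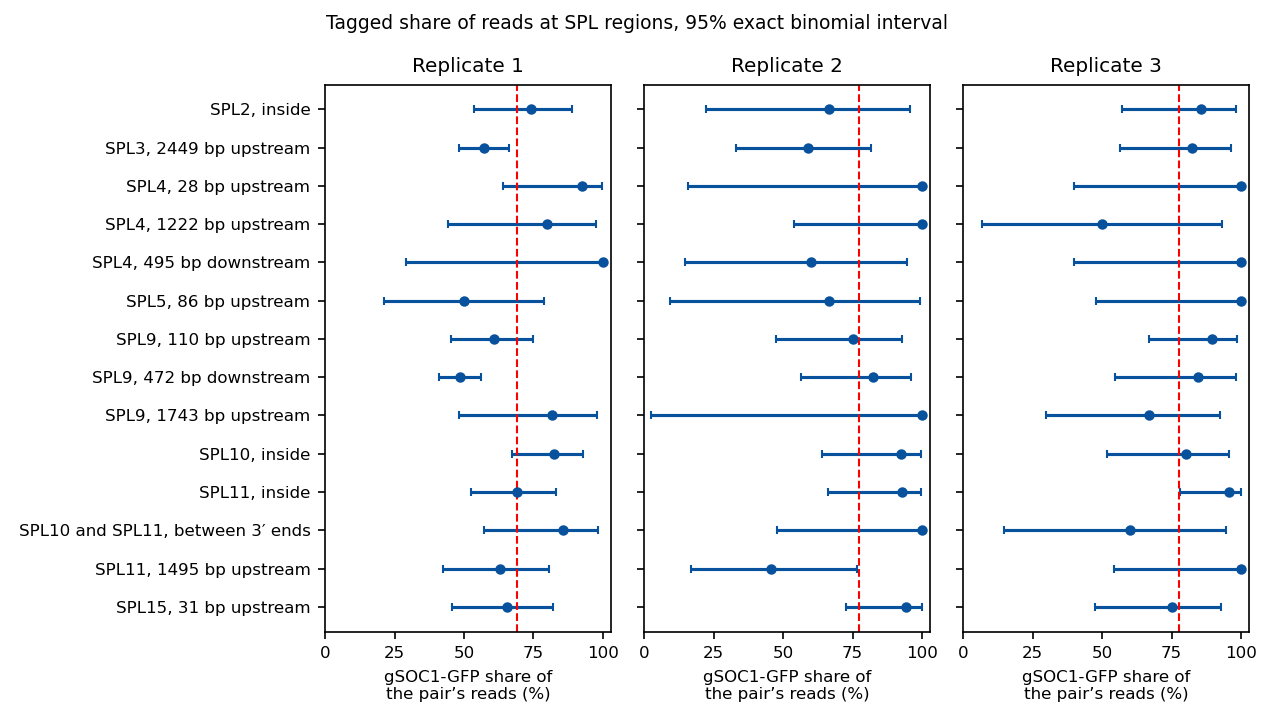
Share of each replicate pair's reads that came from gSOC1-GFP (%, points) at the 14 SPL regions, with 95% exact binomial intervals. The dashed red line is the share given by the scaled library sizes (69.1%, 77.4% and 77.8%), and 38 of the 42 intervals include it. With few reads, an interval includes the line even if every read is tagged.

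Most of these differences could not be told from counting error. With few reads, an interval includes the library share even if every read is tagged. Pair 2 at 1743 bp upstream of SPL9 held 1 read, a tagged one, with an interval of 2.5% to 100%. In such pairs an interval that includes the share says nothing of enrichment. Of the 42 exact binomial intervals (14 regions in 3 pairs), 38 included the share given by the scaled library sizes. The interval for the region inside SPL11 in pair 3 lay just above it, with a lower limit of 78.1% against 77.8%. The library share uses TMM, and other scalings were not tried for it. The 3 that lay below it belonged to the region downstream of SPL9 and the region upstream of SPL3, both in replicate 1, and to the region 1495 bp upstream of SPL11 in replicate 2. Over all regions, 16.2% of intervals in replicate 1 and 2.03% in replicate 2 lay below the library share, and 2.62% in replicate 3 lay above it.

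The median SPL region held 45.5 reads in the 6 libraries together, against 40.0 for all listed regions. The called region with the fewest reads had 71 and the median called region 285.5, totals that include the tagged reads by which they were called. Of the 14 SPL regions, 10 had fewer than 71 reads. The other 4 were the region inside SPL11 (76), the one 110 bp upstream of SPL9 (81), the one upstream of SPL3 (158) and the one downstream of SPL9 (205). Of these 4 regions, only the one inside SPL11 had a mean enrichment above the median of all regions. The regions inside SPL10 (68 reads, mean 0.91) and upstream of SPL15 (63 reads, mean 0.55) fell just below 71 reads and were above that median. Untagged replicate 1 gave 53 of the 158 reads at the SPL3 region and 90 of the 205 downstream of SPL9. The median length was 218 bp for the SPL regions and 212 bp for all listed regions. An untagged count of 0 occurred in at least 1 library at 7 of the 14 SPL regions and 44.9% of all regions.

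**Figure D4:**
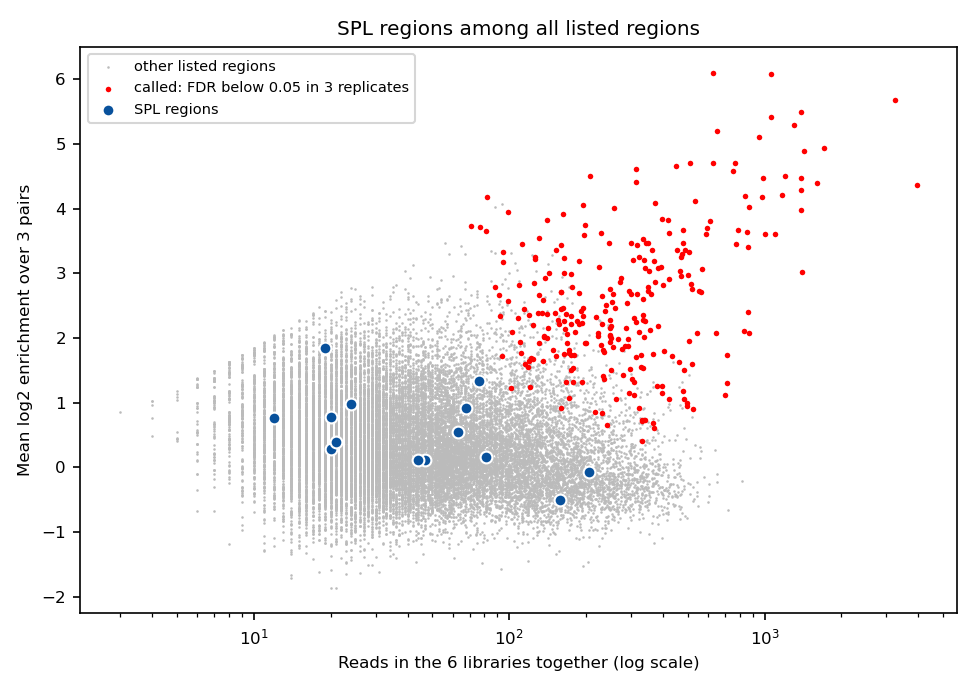
Mean log2 enrichment over 3 pairs against the reads of each region in the 6 libraries together (log scale), for the 14 SPL regions (blue), the 270 regions called by the authors' FDR (red) and the other listed regions (grey). The SPL regions lie at 12 to 205 reads and -0.51 to 1.84, within the grey cloud.

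In the authors' deposited table the 14 SPL regions had a median rank of 9558.5, against 12016.5 for all regions. The best region of SPL11 had rank 1033, that of SPL10 1801, that of SPL15 3420 and that of SPL9 5931. For the remaining genes the best rank was 7164 for SPL4, 9322 for SPL2, 17414 for SPL3 and 19928 for SPL5. By best rank the first SPL genes were the neighbours SPL10 and SPL11, with 2 and 3 regions. The last were SPL3 and SPL5, with 1 each, near EMB3113 and within AT3G15260. A best rank favours genes with more regions, although SPL4 and SPL9 also had 3. At most of these regions the SD over the pairs exceeded the mean enrichment.

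The median enrichment of 0.47 was 0.66 over the 10 regions left by an upstream window of 1000 bp and 0.28 over the 17 regions found with 5000 bp. Just inside the upstream limit lay the SPL3 region at 2449 bp (-0.51 ± 0.80, SD, n = 3). Just outside it lay a region 3197 bp upstream of SPL9, with 7, 7 and 2 reads in tagged and 4, 1 and 2 in untagged libraries (-0.25 ± 1.12). Beyond it were regions 3753 bp upstream of SPL4 (-0.26 ± 0.61) and 4019 bp upstream of SPL2 (-0.13 ± 0.62). Downstream, the limit lay between the region shared by SPL10 and SPL11, at 691 bp from SPL10, and a region 2040 bp downstream of SPL2 (0.57 ± 0.94). No region outside the windows had an FDR below 0.05 in any replicate in the authors' deposited table.

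Over the 6 libraries, the read profile most like that of the region inside SPL11 was at a region 230 bp upstream of CYSD1 and 135 bp downstream of AT3G04930 (Euclidean distance 0.39 in log2 scaled counts, against a median of 3.67 over 24018 regions). It held 23, 14 and 19 tagged and 10, 1 and 1 untagged reads. Next came a region within bZIP7 (distance 0.613) and a region 33 bp upstream of AT1G54740 (distance 0.722). The 4 regions had neighbouring ranks in the authors' deposited table, from 1033 to 1197. These ranks come from the same libraries, so regions chosen for like counts are likely to have like ranks.

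The rest of the age pathway was set beside the 8 genes by the best-ranked region of each gene. In the same windows 22909 genes had a listed region, and the share of genes with a called one was not counted. Of 9 other SPL genes, 7 had a listed region and 0 a called one, with a median enrichment of 0.14 at these regions. The same median was 0.42 for the 8 genes, 0.53 for the microRNA genes and 0.28 for the genes listed as downstream of SPL proteins. SPL13A and SPL13B had none listed. The highest of the 7 was a region within SPL16, with 7, 2 and 14 reads in tagged and 1, 0 and 0 in untagged libraries (2.15 ± 1.34, SD, n = 3). Of 17 microRNA genes of the miR156, miR157 and miR172 families, 12 had a listed region and 1 a called one. This was MIR156E, where the region 1495 bp upstream had tagged counts of 579, 240 and 229 and untagged counts of 8, 1 and 0 (6.08 ± 1.38, SD, n = 3; edgeR adjusted p = 0.000157 with the replicate block and 1.0 without it). The same region was also assigned to AT5G11970. The most covered SPL region, downstream of SPL9, had 205 reads in the 6 libraries together.

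Of 6 genes listed here as downstream of SPL proteins, SOC1 was the single gene with a called region (edgeR adjusted p = 0.00937 with the replicate block and 1.0 without it). The SOC1 promoter is also present in the transgene, unlike those of the other genes. The best-ranked region of FUL, a MADS gene of the inflorescence meristem, gave 0.52 ± 0.54 (SD, n = 3), and that of AP1, a floral meristem identity gene, 0.03 ± 0.87. For LFY, the floral meristem regulator, the value was 0.01 ± 0.75, and for AGL42, a relative of SOC1, it was -0.50 ± 2.40. FD, the bZIP partner of FT, had the highest value after SOC1, 0.93 ± 0.05. Its region, also assigned to AT4G35905, had tagged counts of 15, 7 and 15 over untagged counts of 3, 1 and 2. With untagged counts this low, the small SD does not make the value precise. The best-ranked regions of SPL4 (1.84 ± 0.23) and SPL11 (1.34 ± 1.19) lay above these 5 genes, and that difference was not tested. Those of the remaining SPL genes, from -0.51 to 0.91, lay below FD. The SPL4 value rested on 19 reads and was 0.40 with a prior count of 10.

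**Figure D5:**
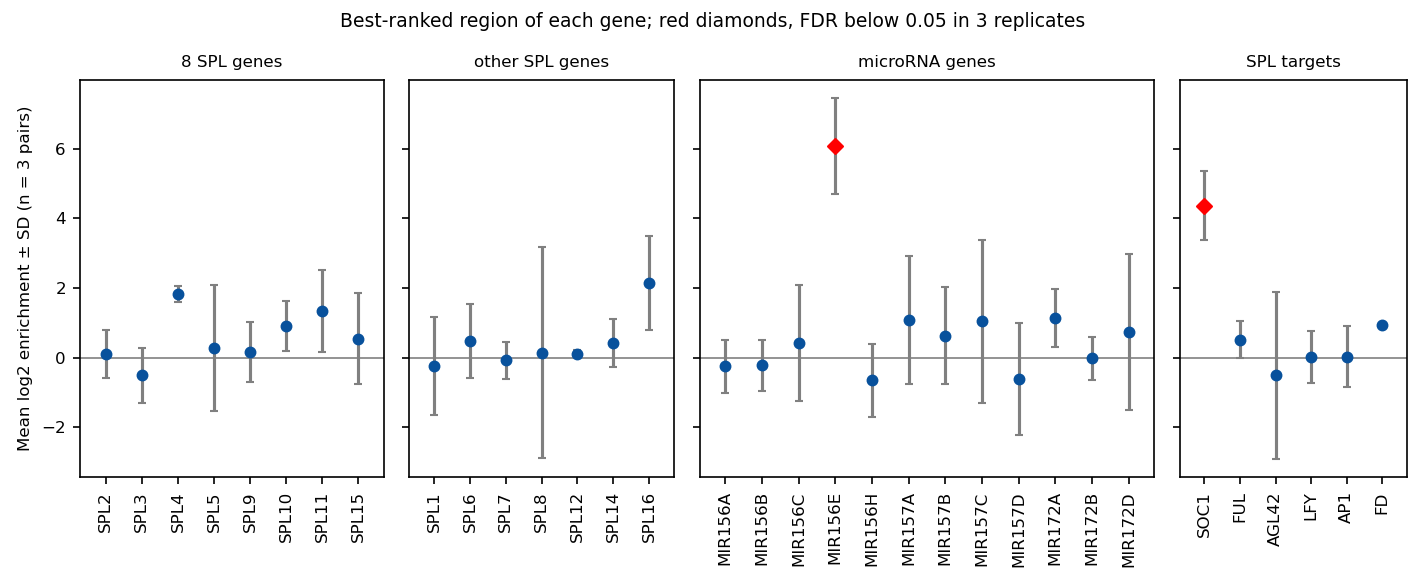
Mean log2 enrichment ± SD (n = 3 pairs) at the best-ranked region of each gene, for the 8 SPL genes, 7 other SPL genes, 12 microRNA genes and 6 genes listed as downstream of SPL proteins. Red diamonds mark regions with an FDR below 0.05 in all 3 replicates, which were those of MIR156E (6.08) and SOC1 (4.37).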

How the data were processed

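The authors deposited 1 table of regions with the read count of each library, not normalized per the column definitions in the deposited text. The authors' FDR is a Benjamini-Hochberg q-value per replicate, which sets tagged against untagged libraries of the same number; their log2 column is the log2 rank product over the replicates, and their rank score orders regions by it, per the same definitions deposited with the table. Per the submitters' processing notes, the genome build was TAIR10. How reads were aligned, how regions were found and which test gave the FDR is not stated in the labels or files. Per the labels' protocols, fragments of 150 to 400 bp were amplified for 18 cycles. PCR reads are not independent molecules, so intervals and floors cover counting error only.

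Groups and replicate numbers came from the sample titles. Starts are printed as deposited (counting from 0 or 1 is not stated) and ends were computed from start and length. Distances run from the region's centre. Symbols came from the RefSeq gene table (TAIR10.1 assembly, names only), in which the 8 loci were found. For log2 enrichment, a prior count of 1 (scaled by library) was added and library sizes were scaled with TMM. Counts were tested with edgeR 4.0.16 (quasi-likelihood, no block, Benjamini-Hochberg over all regions) in R 4.3.3, with DESeq2 1.42.0, a replicate block, filterByExpr and other scalings as alternatives. The edgeR steps and the gene assignment were tested on simulated data. Deviations from group means in same-numbered libraries correlated at 0.498, 0.123 and 0.139, each above the bound of 0.1. Tagged replicate 3 with untagged replicate 2 gave 0.131, so beyond replicate 1 these correlations do not set same-numbered pairs apart. The libraries were treated as pairs by number, as in the deposited FDR columns. The members, lists and tests were chosen with earlier results of these data known. All regions of the 8 genes are named, and the other genes come from fixed lists, given by their best-ranked region. Region sequences were not used here.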

Additional observations from a re-analysis of the deposited data

How the results depend on the processing

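No alternative called an SPL region that it tested: the number stayed at 0 under the replicate block, DESeq2, library totals, filterByExpr, an FDR of 0.01 or 0.1, at least 2 replicates, and each library or replicate left out. Only 5 of the 14 SPL regions passed filterByExpr (SPL10, SPL15, SPL3, and SPL9 at 110 bp upstream and downstream) and only 3 had a DESeq2 adjusted p, so these alternatives say nothing of the other regions, SPL4 at 28 bp and SPL11 among them. The windows of 1000 and 5000 bp upstream gave 10 and 17 regions. Over the whole table, edgeR called 91 regions with the replicate block, 18 with library totals, 80 with filterByExpr, 211 with library totals and the block and 290 with filterByExpr and the block, and DESeq2 called 94. With libraries or replicates left out, edgeR called 0 to 86, the most without replicate 1, with 51 without untagged replicate 1 alone. With the block and without replicate 1, 2 or 3 it called 71, 119 and 69. Among the genes described, the block changed the calls of MIR156E and SOC1, given beside their values, and changed no other call. The median SPL enrichment of 0.47 was 0.06 with a prior count of 10, 0.16 over the 5 regions that passed the filter, and 0.41 to 0.70 with a replicate left out. SPL regions above 0 in all pairs numbered 3, 2 with library totals (without SPL10) and 1 with DESeq2 size factors (SPL4 alone), and 4 to 6 with a replicate left out, which asks for fewer pairs. Of 84 single enrichment values under alternatives, 1 moved by over its SD (SPL4 at 28 bp, prior count 10). The mean enrichment changed sign under at least 1 alternative at 7 of the 14 regions, none of them called. The combinations with the block and the count above 0 were chosen after seeing the data. The cause of these changes was not tested.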
